A study of Bos taurus with 8 samples.

Results

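The genes described here are those of the vascular endothelial growth factor (VEGF) and angiopoietin systems. They are 6 receptors (*KDR*, *FLT1*, *FLT4*, *TEK*, *TIE1* and *NRP1*) and 4 ligands (*VEGFA*, *VEGFC*, *ANGPT1* and *ANGPT2*). These genes and the gene lists below were chosen by name, but with earlier results of these data known. Their counts beside the share of all genes are therefore descriptions and no test. All 10 genes were found among the 18871 named genes counted by RNA-seq in 8 bovine preadipocyte clones. Of these, 4 clones (IMF1-4) came from intramuscular fat (IMF) and 4 (SF1-4) from subcutaneous fat (SF) of adult male Angus-cross steers, with no treatment or genotype that separated the groups. A clone is the progeny of 1 cell of the stromal vascular fraction (SVF), the non-adipocyte cells that collagenase releases from fat, isolated by limiting dilution and grown in DMEM with fetal bovine serum. The 8 clones do not sample the SVF at random, because the study picked them from a larger set by their shape and by how well they grew and stored lipid. The methods place RNA collection in growing, subconfluent cells, whereas the design text places adipogenic induction before sequencing. The methods take every clone from a SVF sample of its depot, and which IMF and SF clones share a steer is not given in the sources used here. The labels name 5 steers and the methods another number, both fewer than the 8 clones, so at least some clones share a steer. The p-values measure the spread between these clones, treat them as independent and do not account for the steer.

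VEGF ligands are secreted proteins that bind receptor tyrosine kinases on endothelial cells, the cells that line blood and lymph vessels. *VEGFA* acts mainly through *KDR* (VEGFR2), *FLT1* (VEGFR1) binds *VEGFA* tightly but signals weakly, and *VEGFC* acts through *FLT4* (VEGFR3), the receptor of lymphatic vessels. *ANGPT1* activates the kinase *TEK* (TIE2), *ANGPT2* competes with it in a context-dependent way, and *TIE1* is a related kinase that modifies *TEK* signalling. *NRP1* is a co-receptor without kinase activity that binds VEGF and class 3 semaphorins and is also made by many mesenchymal cells. In fat, stromal cells and adipocytes are known sources of *VEGFA*, and the kinases are known chiefly from the endothelium.

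The libraries held between 19654917 and 29308882 counts in named genes, and 3 counts, taken as the limit that a count of 0 allows, corresponded to 0.0981 to 0.165 CPM (counts per 1000000 counts in the library, with TMM-scaled library sizes). These limits cover counting error only. IMF2 was the deepest library and had the fewest genes with a count, 17616 against 17706 to 18178 in the other 7 clones. Of 16063 genes with counts in all 8 clones, 644 (4.01%) had only even counts, and none of the 10 genes was among them.

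In the IMF clones, 4 of the 5 receptor kinases and *ANGPT2* were higher than in the SF clones, whereas *VEGFA* and *NRP1* were lower by less than 2-fold. No gene of the 10 was past both thresholds in the lower direction. The thresholds were an adjusted p-value under 0.05 (edgeR's quasi-likelihood test, Benjamini-Hochberg) and an absolute log2 fold change (IMF over SF) of at least 1. Past both were 5 of the 10 genes, 5 higher and 0 lower in IMF, beside 8.82% of all 18339 genes tested (4.78% higher and 4.04% lower). By adjusted p-value alone, 5 were higher and 2 lower, beside 14.4% and 11.4% of all genes tested. The same 7 genes had groups that did not overlap in CPM, 5 higher and 2 lower in IMF, beside 18.0% and 14.1% of all genes tested. The median log2 fold change was 6.26 over the 6 receptors, or 4.31 with genes at 3 counts or fewer in every SF clone placed at their lower bound. Over the 4 ligands it was -0.40, and over all genes tested -0.03.

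**Figure D1:**
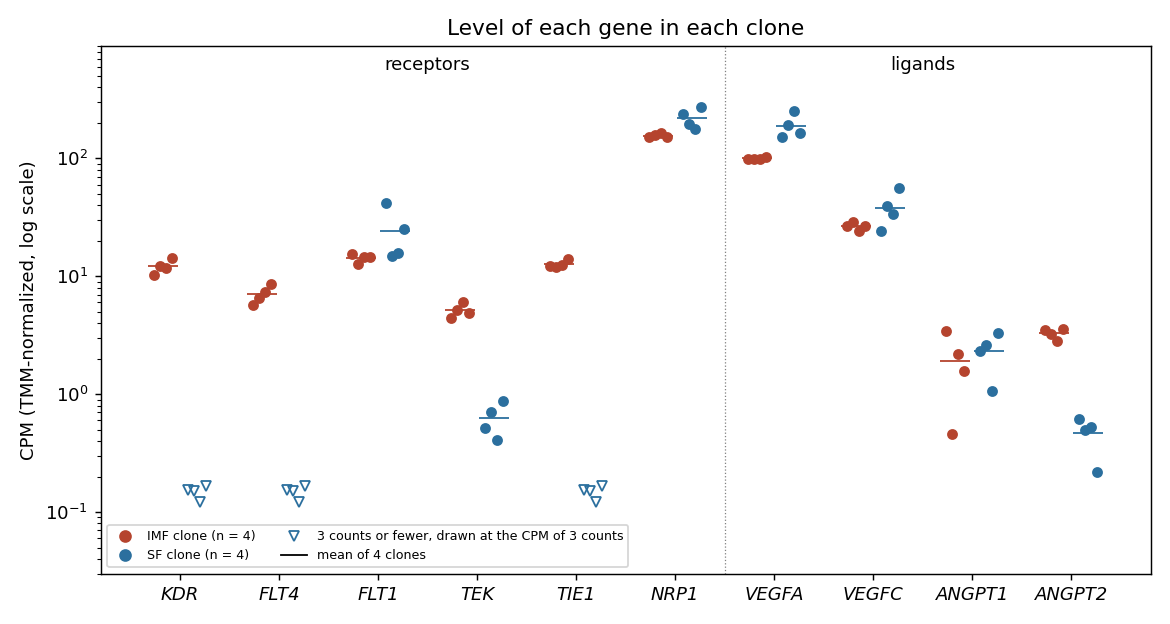
Level of each of the 10 genes (CPM, TMM-normalized, log axis) in 4 IMF and 4 SF clones, with 1 point per clone, horizontal lines for group means, and open triangles for clones with 3 counts or fewer, drawn at the CPM of 3 counts. *KDR*, *FLT4* and *TIE1* have points in the IMF group and only triangles in the SF group, *TEK* and *ANGPT2* separate with the IMF clones above, and *VEGFA* and *NRP1* separate with the SF clones above.

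*KDR*, the main signalling receptor for *VEGFA* (chromosome 6, 70567551 to 70612407, by RefSeq on ARS-UCD2.0, as for the positions that follow), was counted 215, 374, 260 and 300 times in IMF1 to IMF4 and 0 times in each SF clone. Its level was 10.3, 12.2, 11.8 and 14.3 CPM in the IMF clones, with a mean of 12.2 ± 1.64 CPM (SD, n = 4). Every IMF clone had *KDR* reads, and no read was assigned to it in any SF clone. Set against 3 counts in each SF clone, *KDR* was at least 82.2-fold higher in IMF (edgeR adjusted p = 3.26e-05).

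*FLT4*, the *VEGFC* receptor (chromosome 7, 496623 to 537882), had 120, 199, 163 and 180 counts in IMF1 to IMF4 and 0 counts in each SF clone. The IMF level was 7.06 ± 1.21 CPM (SD, n = 4), at least 47.7-fold higher than in SF (edgeR adjusted p = 8.94e-05). The pattern was that of *KDR*, with all 4 SF clones at 0.

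*TIE1*, the modifier of *TEK* signalling (chromosome 3, 102694836 to 102714367), was counted 256, 368, 273 and 295 times in IMF1 to IMF4 and 0, 1, 0 and 0 times in SF1 to SF4. The 4 IMF clones lay close together, at 12.3, 12.0, 12.4 and 14.0 CPM (12.7 ± 0.916, SD, n = 4). *TIE1* was at least 85.8-fold higher in IMF (edgeR adjusted p = 4.77e-06).

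*TEK*, the angiopoietin receptor (chromosome 8, 17050131 to 17153179), was detected in all 8 clones. Its counts were 93, 159, 133 and 102 in IMF1 to IMF4 and 10, 14, 10 and 16 in SF1 to SF4. In CPM these were 4.46, 5.20, 6.03 and 4.85 against 0.513, 0.701, 0.406 and 0.882, and the groups did not overlap. The log2 fold change was 3.04 with a standard error of 0.27 (edgeR adjusted p = 0.000153). Unlike *KDR*, *FLT4* and *TIE1*, the SF clones retained a low *TEK* level above 3 counts.

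*FLT1*, the other kinase that binds *VEGFA* (chromosome 12, 31624080 to 31829381), did not pass the test. It was at 15.3, 12.8, 14.6 and 14.5 CPM in IMF1 to IMF4 and at 41.7, 14.8, 15.8 and 25.2 CPM in SF1 to SF4. SF1, SF3 and SF4 were above all IMF clones, SF3 narrowly, and SF2 lay within the IMF range. Its log2 fold change was -0.77 with a standard error of 0.31 (edgeR adjusted p = 0.108), and it ranged from -0.96 to -0.38 as each clone was left out. *FLT1* was thus the kinase with many counts in every SF clone (295 to 812), while *KDR* had none there.

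*NRP1*, the co-receptor (chromosome 13, 19634857 to 19782189), was the receptor with the most counts per length in both groups. It was at 151, 158, 163 and 153 CPM in IMF1 to IMF4 and at 239, 194, 177 and 274 CPM in SF1 to SF4, so that the groups did not overlap. Its log2 fold change was -0.50 with a standard error of 0.14 (edgeR adjusted p = 0.0289). This call was not held by all settings: the adjusted p was 0.0697 with total counts alone as the scaling, 0.0708 when clone numbers entered as a block, and between 0.0508 and 0.0715 when IMF1, IMF2, IMF3, IMF4, SF1 or SF4 was left out.

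Among the ligands, *VEGFA*, the main angiogenic growth factor (chromosome 23, 17281915 to 17297193), was at 99.6, 99.7, 99.7 and 103 CPM in IMF1 to IMF4 and at 151, 190, 251 and 163 CPM in SF1 to SF4. All SF clones were above all IMF clones. The log2 fold change was -0.91 with a standard error of 0.15 (edgeR adjusted p = 0.00329), short of the fold threshold. Without SF1 it was -1.003 (adjusted p = 0.00171) and past both thresholds. The 4 IMF clones varied by 1.63% of their mean, where counting error alone gives about 2.05%, whereas the SF clones varied by 23.6%. Over all genes, the IMF libraries still differed from each other beyond sampling noise (chi-square per degree of freedom 56.2 to 131 over 6 pairs).

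*VEGFC*, the lymphangiogenic ligand (chromosome 27, 8017962 to 8103427), was at 26.8, 28.9, 24.3 and 26.7 CPM in IMF1 to IMF4 and at 24.1, 39.1, 33.7 and 55.8 CPM in SF1 to SF4. SF1 was below every IMF clone and the other 3 SF clones were above them. Its log2 fold change was -0.52 with a standard error of 0.22 (edgeR adjusted p = 0.127). It depended on SF1 and SF4, being -0.68 without SF1 (adjusted p = 0.0201) and -0.28 without SF4 (adjusted p = 0.269).

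*ANGPT2*, the context-dependent *TEK* ligand (chromosome 27, 5554569 to 5612326), was the ligand that was higher in IMF. Its counts were 73, 99, 62 and 75 in IMF1 to IMF4 and 12, 10, 13 and 4 in SF1 to SF4. In CPM these were 3.50, 3.24, 2.81 and 3.57 against 0.616, 0.501, 0.528 and 0.220, with no overlap. The log2 fold change was 2.79 with a standard error of 0.31 (edgeR adjusted p = 0.00048), close in size to that of *TEK*.

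*ANGPT1*, the activating *TEK* ligand (chromosome 14, 56815170 to 57287107), had few counts in either group. There were 72, 14, 48 and 33 counts in IMF1 to IMF4 and 45, 52, 26 and 60 in SF1 to SF4, or 3.45, 0.458, 2.18 and 1.57 CPM against 2.31, 2.60, 1.06 and 3.31 CPM. The ranges overlapped, and IMF2 was the lowest of the 8 clones. The log2 fold change was -0.28 with a standard error of 0.57 (edgeR adjusted p = 0.765). Its sign rested on IMF2, since it was 0.0334 without that clone. IMF2 also had the fewest genes with a count, and the part of this in its low *ANGPT1* level was not tested.

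**Figure D2:**
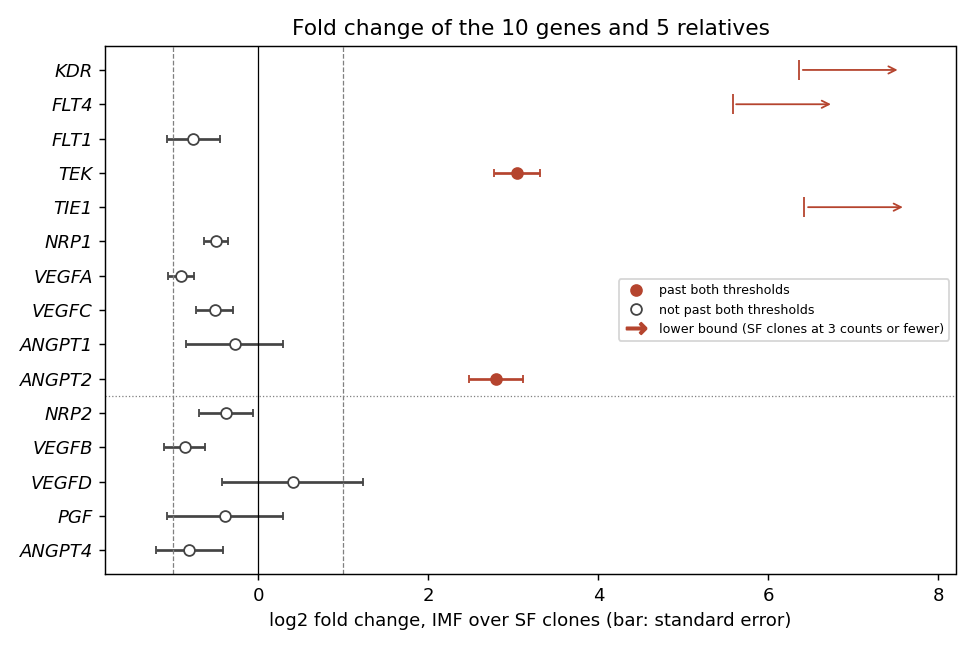
Log2 fold change (IMF over SF, x axis) of the 10 genes and, under the dotted line, 5 relatives, with bars for the standard error, filled points for genes past both thresholds and arrows for lower bounds where every SF clone had 3 counts or fewer. *KDR*, *FLT4*, *TIE1*, *TEK* and *ANGPT2* lie to the right of the dashed line at 1, and *FLT1*, *NRP1*, *VEGFA*, *VEGFC* and *ANGPT1* lie between -1 and 0.

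Levels of different genes were compared as CPM per kilobase of the deposited gene length. In the IMF clones the order was *VEGFA* (35.8 ± 0.585), *NRP1* (24.2 ± 0.848), *VEGFC* (15.1 ± 1.07), *TIE1* (3.48 ± 0.252), *KDR* (1.94 ± 0.261), *FLT1* (1.75 ± 0.133), *ANGPT2* (1.23 ± 0.129), *TEK* (1.12 ± 0.145), *FLT4* (1.07 ± 0.183) and *ANGPT1* (0.429 ± 0.280), each as mean ± SD with n = 4. The ranges of *KDR* and *FLT1* overlapped, as did those of *ANGPT2* with *TEK* and of *TEK* with *FLT4*, so these neighbours cannot be ordered. In the SF clones the order was *VEGFA* (67.2 ± 15.9), *NRP1* (34.2 ± 6.81), *VEGFC* (21.7 ± 7.54), *FLT1* (2.98 ± 1.52), *ANGPT1* (0.519 ± 0.210), *ANGPT2* (0.175 ± 0.0641) and *TEK* (0.136 ± 0.0456), followed by *TIE1*, *KDR* and *FLT4* at or under 3 counts. *NRP1* overlapped *VEGFC* there, and *ANGPT2* overlapped *TEK*. The same 3 genes, *VEGFA*, *NRP1* and *VEGFC*, therefore stood first in both groups, and *TIE1* and *KDR*, which followed them in IMF, were among the last 3 in SF.

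Summed per kilobase, the 4 ligands stood at 50.8 to 53.5 in the IMF clones and at 68.2 to 109 in the SF clones, and the 5 kinases at 8.73 to 10.3 in IMF and at 1.97 to 5.20 in SF. The ratio of the ligand sum to the kinase sum was 6.04, 5.96, 5.35 and 5.22 in IMF1 to IMF4 and 13.1, 46.0, 54.0 and 27.6 in SF1 to SF4. All 4 SF clones lay above all IMF clones. With *NRP1* included, the receptor sums overlapped, at 32.1 to 34.7 in IMF and 29.4 to 45.7 in SF.

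Ligands and receptors were then compared as ratios within a clone, which depend little on scaling between clones where both genes have counts. In the SF clones *KDR* and *FLT4* had 0 counts, and the prior count gave each the same log2 level in every clone. The tested log2 ratios against these 2 receptors therefore keep the scaling of the ligand there. The 6 ratios were tested with an exact permutation test (two-sided, over 70 splits of the 8 clones, on log2 ratios of CPM per kilobase with a prior count of 2), whose smallest possible p is 0.0286, or 0.0429 after adjustment over the 6 ratios here. *VEGFA* to *KDR* was 21.6, 18.2, 18.9 and 16.1 in IMF1 to IMF4 and at least 2190, 2829, 4602 and 2201 in SF1 to SF4, where *KDR* was set to 3 counts. *VEGFC* to *FLT4* was 17.4, 16.6, 12.3 and 11.7 in IMF and at least 586, 977, 1038 and 1264 in SF. In IMF each ligand thus stood 11.7 to 21.6 times above its receptor, and in SF the receptor end of both pairs was at 0 counts. The differences of the mean log2 ratios (IMF minus SF) were -7.95 and -6.74 at a prior count of 2, and both had the smallest exact permutation p. Their size depends on the prior count (-9.94 and -8.73 with 0.5) and is no bound.

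*VEGFA* to *FLT1* did not separate the groups. It was 19.0, 22.8, 19.8 and 20.7 in IMF1 to IMF4 and 10.6, 37.5, 46.3 and 18.8 in SF1 to SF4, a log2 difference of -0.24 (exact permutation p = 0.686). The IMF clones lay close together and inside the range of the SF clones. Between the 2 *VEGFA* receptors, *KDR* to *FLT1* was 0.879 to 1.28 in the IMF clones and at most 0.00482 to 0.0133 in the SF clones, given as values without a test.

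For the angiopoietins, *ANGPT1* to *TEK* was 0.798, 0.0907, 0.372 and 0.333 in IMF1 to IMF4 and 4.64, 3.83, 2.68 and 3.86 in SF1 to SF4. The ligand was below its receptor in all IMF clones and above it in all SF clones, a log2 difference of -3.35 (exact permutation p = 0.0286, adjusted 0.0429). *ANGPT2* to *TEK* was 1.35, 1.07, 0.804 and 1.27 in IMF and 2.07, 1.23, 2.24 and 0.431 in SF, a log2 difference of -0.25 (exact permutation p = 0.571). *ANGPT2* and *TEK* differed between the groups in the same direction, and their ratio overlapped. *ANGPT2* to *ANGPT1* was 1.70, 11.8, 2.16 and 3.80 in IMF and 0.446, 0.322, 0.837 and 0.112 in SF, a log2 difference of 3.10 (exact permutation p = 0.0286, adjusted 0.0429). Every IMF clone had more *ANGPT2* than *ANGPT1* per kilobase, and every SF clone had less.

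**Figure D3:**
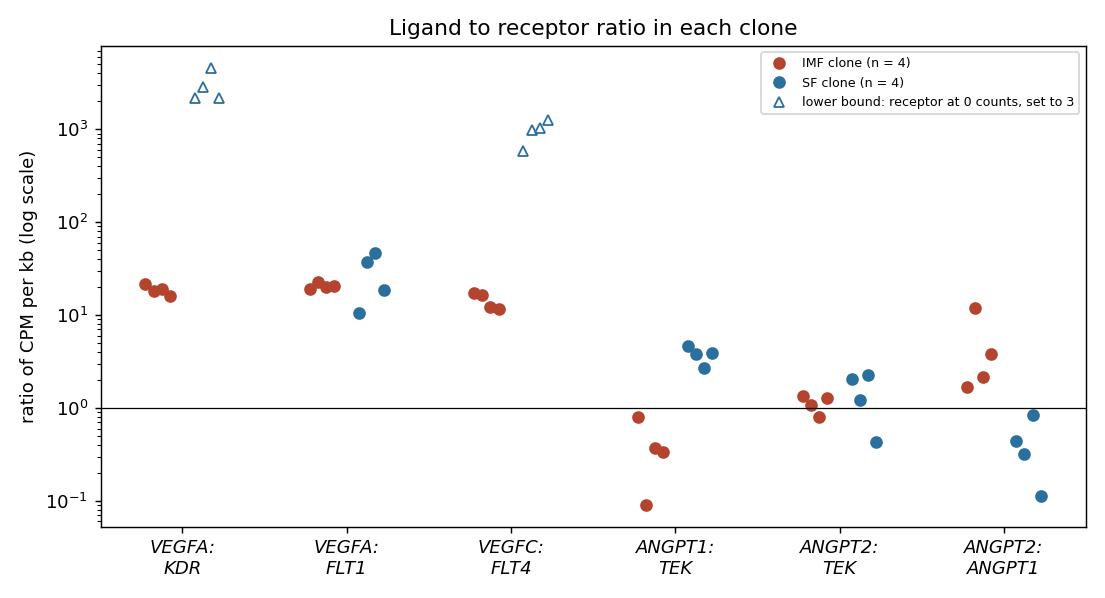
Ratio of CPM per kilobase (log axis) for 6 pairs of genes in 4 IMF and 4 SF clones, with 1 point per clone, a line at a ratio of 1, and open triangles for lower bounds where the receptor had 0 counts and was set to 3. The groups separate for *VEGFA* to *KDR*, *VEGFC* to *FLT4*, *ANGPT1* to *TEK* and *ANGPT2* to *ANGPT1*, and overlap for *VEGFA* to *FLT1* and *ANGPT2* to *TEK*.

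Between kinases, ratios per kilobase varied little among the IMF clones for some pairs and more for others. *FLT4* to *KDR* was 0.505 to 0.595, *KDR* to *TIE1* was 0.488 to 0.590, *TIE1* to *TEK* was 2.60 to 3.66, and *KDR* to *FLT1* was 0.879 to 1.28. The spread of single genes also differed between the groups. Of the 7 genes that every clone expressed above 3 counts, *ANGPT1* was more variable in IMF (65.2% of the mean against 40.6% in SF), and the other 6 were more variable in SF, for example *FLT1* at 7.62% in IMF and 51.2% in SF and *NRP1* at 3.50% and 19.9%. For *TEK* and *ANGPT2*, with 4 to 16 counts per SF clone, the SF spread of 33.6% and 36.7% was near the 28.3% and 32.0% that counting error alone gives.

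Of 5 relatives of these genes, 0 were past both thresholds, beside 8.82% of all genes tested, a share at which a count of 0 among 5 says little about them. *VEGFB*, a ligand of *FLT1*, was at 7.15, 7.98, 8.39 and 7.19 CPM in IMF1 to IMF4 and at 9.91, 22.0, 11.2 and 12.9 CPM in SF1 to SF4, with no overlap and a log2 fold change of -0.87 (standard error 0.24, edgeR adjusted p = 0.0306). Its adjusted p was 0.0712 with total counts alone and 0.0531 to 0.0754 without IMF1, IMF2, IMF3, IMF4 or SF4. *PGF*, the placental ligand of *FLT1*, was at 17.8, 2.03, 1.99 and 4.76 CPM in IMF and at 12.0, 7.11, 6.29 and 9.26 CPM in SF, with IMF1 far above the other IMF clones. *VEGFD*, a ligand of *KDR* and *FLT4*, had 2 to 42 counts per clone in IMF and 8 to 26 in SF. *NRP2*, the co-receptor for *VEGFC*, averaged 45.5 ± 3.40 CPM over the IMF clones and 59.4 ± 28.4 CPM over the SF clones, and *ANGPT4*, the remaining angiopoietin, was at 2.61 ± 0.427 and 4.59 ± 2.54 CPM (SD, n = 4). The edgeR adjusted p-values of these 4 genes were between 0.17 and 0.765.

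Of the 7 genes that process or guide VEGFC protein, *CCBE1* was past both thresholds. That is 1 higher and 0 lower in IMF, beside 4.78% and 4.04% of all genes tested. A count of 1 among 7 says little about the list as a whole. *CCBE1*, the cofactor for VEGFC cleavage, was at 13.0 ± 0.511 CPM in IMF (SD, n = 4) and had 0, 2, 2 and 2 counts in SF1 to SF4, so that it was at least 88.2-fold higher in IMF (edgeR adjusted p = 6.51e-06). Of 20 tested genes of signalling below the receptors, 5 were higher and 1 lower in IMF, beside 4.78% and 4.04% of all genes tested. *NOS3*, the endothelial nitric oxide synthase, was at least 191-fold higher, with 28.3 ± 1.76 CPM in IMF and 0, 2, 0 and 1 counts in SF1 to SF4. On the log2 scale the adaptor *SHB* was higher by 1.44 (standard error 0.33) and the lipid kinase *SPHK1* by 1.05 (standard error 0.17), while the kinase *PRKCA* was lower, at -1.38 (standard error 0.19). The other 2 were named after their values were seen: *PTPRB*, a phosphatase that acts on *TEK*, at 2.81, and the phospholipase *PLCG2* at 1.21. *SPHK1* fell short of the fold threshold without SF3 (0.97) or SF4 (0.95), as did *PLCG2* without SF4 (0.96), and the adjusted p of *PLCG2* was 0.0527 to 0.0858 without any clone other than SF3 and SF4.

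Of 8 tested genes that VEGF is known to induce in endothelium, 1 was higher and 0 lower in IMF. Of all genes tested, 4.78% were higher and 4.04% lower, so a count of 1 among 8 says little about the list. The gene past both thresholds was *UNC5B*, a netrin receptor of vessel tip cells, with a log2 fold change of 2.75 (standard error 0.34, edgeR adjusted p = 0.000802). The counts of 2 genes of this list, *DLL4* and *APLNR*, were even in all 8 clones. Among 12 class 3 semaphorins and plexins, the partners of neuropilins, 3 were higher and 3 lower in IMF, beside 4.78% and 4.04% of all genes tested. The plexin *PLXNA2* rose from 4.39 ± 2.11 CPM in SF to 118 ± 9.32 CPM in IMF, a log2 fold change of 4.73 (standard error 0.33). The repellent ligands *SEMA3C*, *SEMA3F* and *SEMA3D* were lower in IMF, at -1.86, -1.02 and -2.08, and the counts of *SEMA3C* were all even. *PLXNA4* and *SEMA3G*, also higher in IMF at 3.94 and 2.01, were named after their values were seen. *PLXNA4* had 47, 0, 8 and 0 counts in SF1 to SF4, so SF1 supplied most of its SF level and the size of its fold change rests on that clone. *SEMA3F* was at -0.87 with total counts alone and at -0.98 without SF1 or SF4, short of the fold threshold, and the adjusted p of *PLXNA4* was 0.0540 to 0.0624 without IMF3, IMF4 or SF3.

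Of 13 tested genes of the hypoxia response, which controls *VEGFA* transcription in many cells, 2 were higher and 0 lower, beside 4.78% and 4.04% of all genes tested. *HIF1A*, the oxygen-regulated transcription factor, averaged 222 ± 5.66 CPM over the IMF clones against 108 ± 12.2 CPM over the SF clones, a log2 difference of 1.03 ± 0.09 (standard error), and the glucose transporter *SLC2A1* changed by 1.10 ± 0.32 (standard error, edgeR adjusted p = 0.0333). The direction of these 2 genes was opposite to that of *VEGFA*. By adjusted p-value alone, 4 genes of the list were higher and 1 lower, beside 14.4% and 11.4% of all genes tested. The part of this list in the *VEGFA* level was not tested. *HIF1A* was at 0.98 without SF2, short of the fold threshold, and the adjusted p of *SLC2A1* was 0.0622 to 0.0812 when any clone but SF3 was left out. The median log2 fold changes of these lists were -0.10 for VEGFC processing, 0.18 for receptor signalling, 0.05 for VEGF-induced genes, -0.62 for semaphorins and plexins and 0.54 for the hypoxia response, beside -0.03 over all genes tested.

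Markers of endothelium and muscle were higher in IMF, as were *KDR*, *FLT4*, *TIE1* and *TEK* but not *FLT1* or *NRP1*, and those of mural cells and leukocytes went in both directions. In bulk RNA, fewer cells of a type and less RNA per cell cannot be told apart. Each count of markers stands beside 4.78% of all genes tested higher and 4.04% lower in IMF. Of 12 endothelial markers, 11 were higher in IMF and 0 lower, and their summed level was 205 to 252 CPM in the IMF clones and 30.0 to 41.4 CPM in the SF clones. The defining markers *EMCN* and *SOX18* had 0 counts in all SF clones, *CDH5* had 4, 3, 3 and 4, and *PECAM1* had 2, 10, 13 and 3. Other endothelial markers were clearly present in SF, with 36, 60, 64 and 27 counts of *VWF* and 48, 13, 37 and 19 of *EGFL7*. In IMF, *CDH5*, the junction protein of endothelium, stood at 53.9 ± 2.88 CPM and *PECAM1* at 27.9 ± 2.64 CPM. *CLDN5* did not pass the test, at 36.9 ± 11.8 and 31.3 ± 5.45 CPM, and supplied most of the SF sum. Its counts were even in all 8 clones. Of 3 tested lymphatic markers, *PROX1* and *PDPN* were higher, with a summed level of 19.0 to 24.3 CPM in IMF and 1.26 to 6.01 CPM in SF. The other, *LYVE1*, did not pass the test (2.84 ± 1.94 CPM in IMF and 3.34 ± 2.08 in SF, SD, n = 4), supplied most of the SF sum and had even counts in all 8 clones.

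The markers of muscle cells moved in the same way, with 7 of 7 higher in IMF, a summed level of 587 to 663 CPM in IMF and 0.551 to 31.0 CPM in SF, and *MYOD1*, *MYOG* and *CHRNA1* at 0 counts in all SF clones. Of 10 stromal, preadipocyte and adipocyte markers, *FABP4* was higher and *PPARG* and *COL1A1* were lower in IMF. The sums were 23391 to 24558 CPM over the IMF clones and 46922 to 52933 CPM over the SF clones. *COL1A1* and *COL1A2* made up most of these sums, and *PDGFRA*, *DCN* and *LUM* had log2 fold changes of 0.49, 0.75 and 0.15. *DLK1* had 0 counts in IMF2 and 4 in IMF3, so not every marker of the labelled preadipocyte type was present in every clone. *FABP4*, which the study uses as a marker of adipocytes after differentiation, had 0, 0, 8 and 7 counts in SF1 to SF4. The IMF clones also carried endothelial and muscle markers. Again beside 4.78% and 4.04% of all genes tested, 2 of 6 tested mural markers were higher and 2 lower (sums 1316 to 1443 and 1438 to 6883 CPM), and of 6 tested leukocyte markers, 1 was higher and 1 lower (sums 26.5 to 45.4 and 53.4 to 89.9 CPM). The part of these markers in the receptor and ligand differences was not tested.

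**Figure D4:**
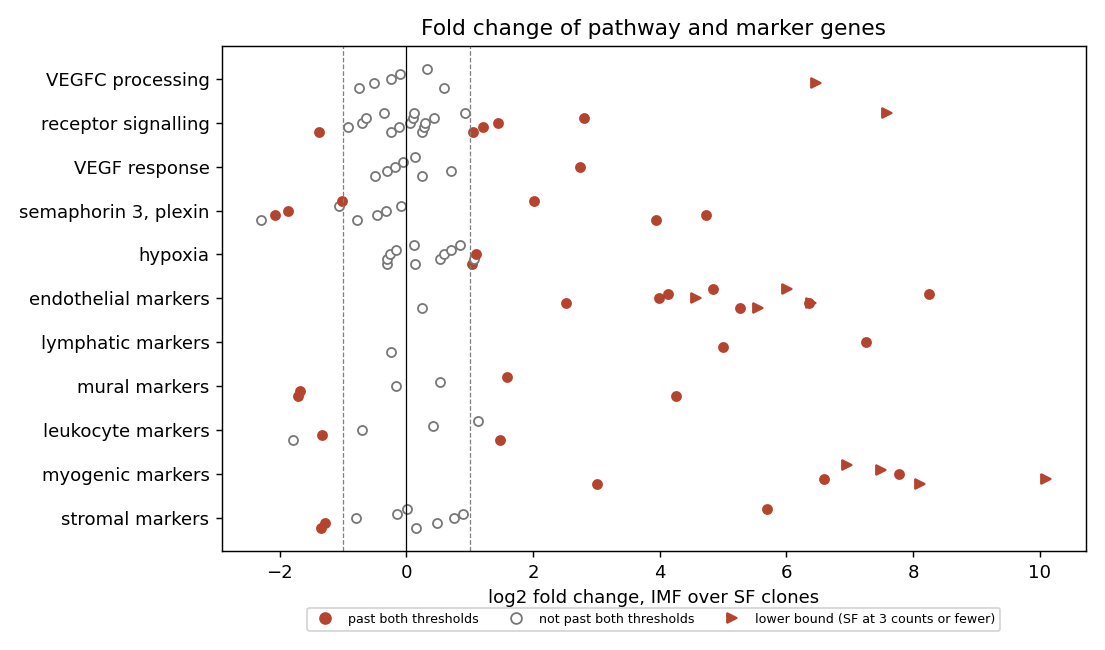
Log2 fold change (IMF over SF, x axis) of every tested gene in 5 pathway lists and 6 cell type marker lists, with 1 point per gene, filled where past both thresholds, and arrowheads for lower bounds where every SF clone had 3 counts or fewer. The endothelial and muscle markers lie far to the right with 11 of 12 and 7 of 7 past both thresholds, whereas most genes of the pathway lists lie between -1 and 1.

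The genes whose profiles over the 8 clones lay nearest to those of *KDR* and *VEGFC* were found by Euclidean distance of centred log2 CPM among 15380 genes with a mean of at least 1 CPM. For *KDR* they included *OTOG* (distance 0.23), *SOX18* (0.29), *IGFN1* (0.44) and *MBP* (0.51), all with 0 counts in the 4 SF clones. With *KDR* also at 0 there, nearness meant no SF counts and a similar level in IMF. *SOX18* is a transcription factor of vessels, and whether the other named genes share a function with *KDR* was not tested. For *VEGFC* they were *CALHM5* (0.31), *EFNB2* (0.31), *TC2N* (0.39), *ELF5* (0.41) and *PCBD1* (0.41), which followed its clone-to-clone variation in SF. *EFNB2* encodes ephrin-B2, a membrane ligand of arterial and lymphatic vessels.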

How the data were processed

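RNA-seq was analysed for 8 clones, grouped by the clone names in the labels. The authors trimmed reads with Trimmomatic 0.39 and counted them with featureCounts 2.0.2. The deposited values are raw counts of reads for each gene in each clone. The methods name HISAT2 with ARS-UCD2.0 and non-stranded libraries, whereas the labels' processing notes name STAR 2.7.11a and the labels a dUTP step, so the aligner and strand setting are not settled, and antisense or overlapping genes could share reads. The deposited columns of group means and of a DESeq2 result (the notes name DESeq2 1.42.0) were not used. The lowest total deposited for a gene is 11 counts. The unnamed row, 0.0148% to 0.0209% of counts, was left out.

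Testing used edgeR 4.0.16 under R 4.3.3, with TMM normalization, two-sided quasi-likelihood test, a total of at least 20 counts (18339 genes) and Benjamini-Hochberg adjustment. Ratios were tested with an exact permutation test in Python 3.11.15 with SciPy 1.17.1. Bounds used 3 counts per clone. Samples of a group differed beyond sampling noise (chi-square per degree of freedom 42.9 to 131 over 12 pairs). The tests were tried on simulated data. Alternatives were DESeq2 1.42.0, limma-voom (limma 3.58.1), other size factors, filters, robust dispersion, glmTreat, a prior count of 2, a block on clone numbers, and each clone left out in turn.

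Members and gene lists were chosen with earlier results of these data known. Named genes were the 10 members, 5 relatives, in each pathway list the genes past both thresholds with the highest mean (at most 4) and the 5 nearest profiles of *KDR* and *VEGFC*, of which 1 is not reported here. Coordinates came from RefSeq on ARS-UCD2.0, whose list held 14421 of the 18871 gene IDs. Genes of the lists without a row in the table were not analysed here.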

Additional observations from a re-analysis of the deposited data

Results flagged for a closer look

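In 2 of 39 groups of 4 clones, 1 clone lay far from the other 3, judged by its gap to the nearest clone as a share of the group's range against Dixon's 95% critical value. Chance gives about 1 such group in 20. *VEGFA* in the IMF clones had a share of 0.942, with IMF4 at 103 CPM and the other 3 between 99.6 and 99.7 CPM, within a spread of 1.63% of the mean. *TIE1* in the IMF clones had a share of 0.830, with IMF4 at 14.0 CPM and the others between 12.0 and 12.4 CPM. Neither IMF4 value was near the range of the SF clones.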

How the results depend on the processing

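*KDR*, *FLT4*, *TIE1*, *TEK* and *ANGPT2* were past both thresholds under each of the 19 alternatives, and 6 of the 10 genes were when SF1 was left out, *VEGFA* being the other. Leaving out each clone gave log2 fold changes of -1.003 to -0.77 for *VEGFA* and of -0.73 to 0.0334 for *ANGPT1*, whose sign reversed without IMF2. The number of genes past both thresholds, 1618 (877 higher and 741 lower in IMF), fell to 631 (476 and 155) when tested against a log2 fold change of 1, and was 1996 with DESeq2 (48.9% higher against 54.2%), 1617 with total counts alone (66.7% higher, with the median of all genes at 0.12 in place of -0.03) and 1489 with the clone number as a replicate block, of which 1356 were among the 1618. Same-numbered clones deviated together only slightly more than others did (mean correlation 0.055 over 4 pairs, against -0.018 over 12 others). In each group, 2 of 4 clones were most like their own number. With 4 pairs and no test, these values cannot show whether the numbers mark pairs, and they were not taken as pairs. The log2 ratios ranged, leaving out each clone, from -8.05 to -7.80 for *VEGFA* to *KDR*, -6.94 to -6.54 for *VEGFC* to *FLT4*, -3.78 to -2.82 for *ANGPT1* to *TEK* and 2.58 to 3.50 for *ANGPT2* to *ANGPT1*; the exact permutation test with 3 clones in a group cannot go below p = 0.0571 (adjusted 0.0857), so these fits say nothing about stability. *VEGFA* to *FLT1* ranged from -0.64 to 0.0676, its sign reversing without SF3. *ANGPT2* to *TEK* ranged from -0.67 without SF4 to -0.0173 without SF3. With a prior count of 0.5, the ratios against receptors at 0 counts moved to -9.94 for *VEGFA* to *KDR* and -8.73 for *VEGFC* to *FLT4*. At this depth a count of 0 in an SF clone, as for *KDR* and *FLT4*, allows a level of up to 0.122 to 0.165 CPM.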
